A study of Mus musculus with 20 samples.

Results

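The 4 genes described here, Abca1, Abcg1, Abcg5 and Abcg8, encode the ATP-binding cassette (ABC) transporters that move cholesterol and other sterols out of cells. They were taken by gene name from a single-colour Agilent whole-mouse array, which measured them with 5 of its 41174 probes, and they are 4 of the 27566 gene names on it. Liver RNA came from 20 male mice aged 28 weeks on a mixed Sv129/C57Bl6J background, 1 array per mouse. The knockout mice (KO) lacked both liver X receptors, LXR alpha and LXR beta, in the whole body, and the wild-type mice (WT) carried both. There were 5 knockout mice on Western diet (WD), 5 knockout mice on normal diet (ND), 5 wild-type mice on Western diet and 5 wild-type mice on normal diet, each fed its diet for 7 weeks. The samples were pieces of the large lobe of the liver, so every value is an average over all the cell types in the piece, and fewer cells of a type and less RNA per cell cannot be told apart.

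The LXRs are nuclear receptors that bind oxidised forms of cholesterol and, as heterodimers with RXR, switch on genes that clear sterol. All 4 transporter genes are known LXR targets. ABCA1 passes cholesterol and phospholipid to lipid-poor apolipoprotein A-I, the first step in making HDL in liver. ABCG1 moves sterol within and out of cells, is abundant in macrophages and is low in hepatocytes. ABCG5 and ABCG8 pair into 1 working pump in the canalicular membrane of the hepatocyte, where they secrete cholesterol and plant sterols into bile.

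Promoter windows for 3 of the 4 genes were present in the RefSeq table used here (build GRCm38.p6), each with 250 bases before and 50 after the annotated transcription start. Those of Abca1 and Abcg8 are shown because the transcripts of both were lower in knockout mice on Western diet, and because the Abcg8 window also holds most of the Abcg5 window. Abcg5 and Abcg8 lie head to head on chromosome 17 with starts 110 bases apart, and their windows share 209 bases. The Abca1 window is chr4:53159846-53160145 on the minus strand, and capitals mark both 6-base units of its best match to a direct repeat of AGGTCA with a spacer of 4 bases, the arrangement (DR4) that LXR and RXR bind. The Abcg8 window shown, the one that overlaps that of Abcg5, is chr17:84682871-84683170 on the plus strand, and capitals mark AGATAA on either strand, the form of site that GATA factors bind. A second Abcg8 window, with its annotated start at chr17:84676302, holds no AGATAA and is not shown.
Abca1: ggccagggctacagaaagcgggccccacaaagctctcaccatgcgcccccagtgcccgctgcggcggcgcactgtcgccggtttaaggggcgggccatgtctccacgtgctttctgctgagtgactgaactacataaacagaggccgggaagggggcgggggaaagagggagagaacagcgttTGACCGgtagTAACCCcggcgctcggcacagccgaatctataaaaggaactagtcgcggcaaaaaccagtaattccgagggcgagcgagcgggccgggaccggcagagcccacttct
Abcg8: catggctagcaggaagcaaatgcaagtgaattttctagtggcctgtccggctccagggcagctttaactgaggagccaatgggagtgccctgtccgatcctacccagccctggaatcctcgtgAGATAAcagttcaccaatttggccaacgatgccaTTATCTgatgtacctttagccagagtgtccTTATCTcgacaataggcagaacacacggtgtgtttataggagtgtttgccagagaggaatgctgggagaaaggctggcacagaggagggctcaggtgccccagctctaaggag

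The Abca1 match begins at position -67 from the transcription start, where 0 is the first transcribed base, lies on the opposite strand, and reads GGGTTActacCGGTCA. It differs from the repeat at 3 of 12 letters, and 21.9% of the 32851 promoter windows in the table hold a match at least as good on either strand. The best matches in the Abcg5 and Abcg8 windows differ at 4 of 12 letters, which 76.9% of windows equal or better. The shared Abcg5 and Abcg8 window holds 3 copies of AGATAA, and 11.2% of all windows hold at least 1. The Abca1 window holds 1 CACGTG (7.15% of windows) and 1 TATAAA (13.6% of windows), and neither of these 6-letter motifs overlaps the DR4 match. These matches describe letters in a window and carry no information on binding in these livers.

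Both deleted receptors checked the labels. Nr1h3, which encodes LXR alpha, ran from 0.0231 to 0.0750 in KO WD and from 0.0281 to 0.0709 in KO ND livers, against 14.1 to 25.6 in WT WD and 20.8 to 25.6 in WT ND livers. Nr1h2, which encodes LXR beta, ran from 0.0258 to 0.0840 in KO WD and from 0.0186 to 0.0702 in KO ND livers, against 1.52 to 1.76 in WT WD and 1.59 to 2.01 in WT ND livers. Here and below a level is the processed signal of the probe as a multiple of the 75th percentile of its array, and differences are on the log2 scale of that level. All knockout arrays lay far below all wild-type arrays for both genes. The 75th percentile ran from 170.3 to 435.1 intensity units per array. It was 339.7 to 435.1 in KO WD, 223.5 to 323.3 in KO ND, 261.1 to 330.8 in WT WD and 170.3 to 280.0 in WT ND arrays. The scaling thus differed with the group and was strongest in KO WD, which matters most for small differences. The arrays lay on 6 slides, and replicates of a group correlated, across probes, at 0.9682 to 0.9893. Of 10 hepatocyte markers, 9 were on the array and all 9 were well above background on all 20 arrays.

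All 5 transporter probes were well above background on all 20 arrays and none was saturated. The deleted genes Nr1h3 and Nr1h2 had the same mark on 4 or 5 of the 5 arrays of each knockout group. The mark alone therefore does not show expression. On mm8, the build of the array's annotation, Abca1 was read at chr4:53052172-53052231 on the minus strand, Abcg1 at chr17:30842647-30842706 on the plus strand and Abcg5 at chr17:84566590-84566649 on the minus strand. Abcg8 had a brighter probe at chr17:84607731-84607790 and a dimmer one at chr17:84603387-84603446, both on the plus strand. The exon or untranslated region that each 60-base probe reads was not analysed here. Levels are compared between groups for 1 probe at a time, since probes differ in brightness for the same amount of RNA. The Abcg5 spot was marked as an outlier by the extraction software on 6 arrays and was left out there, which left 3, 4, 4 and 3 mice in KO WD, KO ND, WT WD and WT ND.

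Abca1, the transporter that starts HDL formation, was highest in wild-type livers on Western diet. Its level was 9.53, 9.33, 8.77, 10.7 and 8.40 in KO WD livers 1 to 5 and 8.08, 9.07, 8.13, 10.9 and 11.8 in KO ND livers. It was 16.96, 11.8, 16.2, 15.5 and 16.6 in WT WD livers and 12.2, 11.7, 10.6, 10.3 and 9.05 in WT ND livers. Wild-type mouse 2 on Western diet lay within the range of wild-type mice on normal diet, the other 4 lay above every other liver, and the remaining 3 groups overlapped one another.

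Abcg1, the transporter known for its high level in lipid-laden macrophages, was highest in knockout livers on Western diet. Its level was 6.61, 7.07, 7.20, 6.24 and 5.99 in KO WD livers and 1.14, 1.18, 1.33, 0.382 and 0.893 in KO ND livers. It was 1.90, 1.66, 0.804, 1.28 and 0.857 in WT WD livers and 0.318, 0.442, 0.406, 0.341 and 0.303 in WT ND livers. Every KO WD liver stood above every other liver, KO ND and WT WD livers overlapped, and KO ND mouse 4 lay within the range of the WT ND livers, which were otherwise the lowest.

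Abcg5, a subunit of the biliary sterol pump, followed another order. Without the outlier spots its level was 15.8, 21.7 and 31.9 in KO WD livers and 34.8, 65.5, 52.5 and 22.2 in KO ND livers. It was 90.1, 79.3, 151.1 and 114 in WT WD livers and 26.6, 36.7 and 27.1 in WT ND livers. WT WD livers stood above all the others with no overlap, KO ND livers overlapped both KO WD and WT ND livers, and KO WD livers overlapped WT ND livers. The 6 outlier spots read 26.3 and 18.7 in KO WD, 49.1 in KO ND, 116 in WT WD and 28.3 and 33.8 in WT ND, each inside the range of its own group.

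Abcg8, the other subunit of that pump, read by its brighter probe, gave 0.672, 0.222, 0.350, 0.577 and 0.314 in KO WD livers. It gave 1.56, 2.45, 1.69, 0.798 and 1.44 in KO ND livers. It gave 4.60, 3.65, 3.90, 6.33 and 6.33 in WT WD livers and 1.35, 1.51, 1.34, 1.80 and 1.62 in WT ND livers. The WT WD livers stood highest and the KO WD livers lowest, each apart from every other group, and the groups on normal diet overlapped. The dimmer Abcg8 probe kept the same order, at 0.0690 to 0.255 in KO WD, 0.431 to 0.945 in KO ND, 1.49 to 2.40 in WT WD and 0.486 to 0.713 in WT ND livers, with the same groups overlapping.

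**Figure D1:**
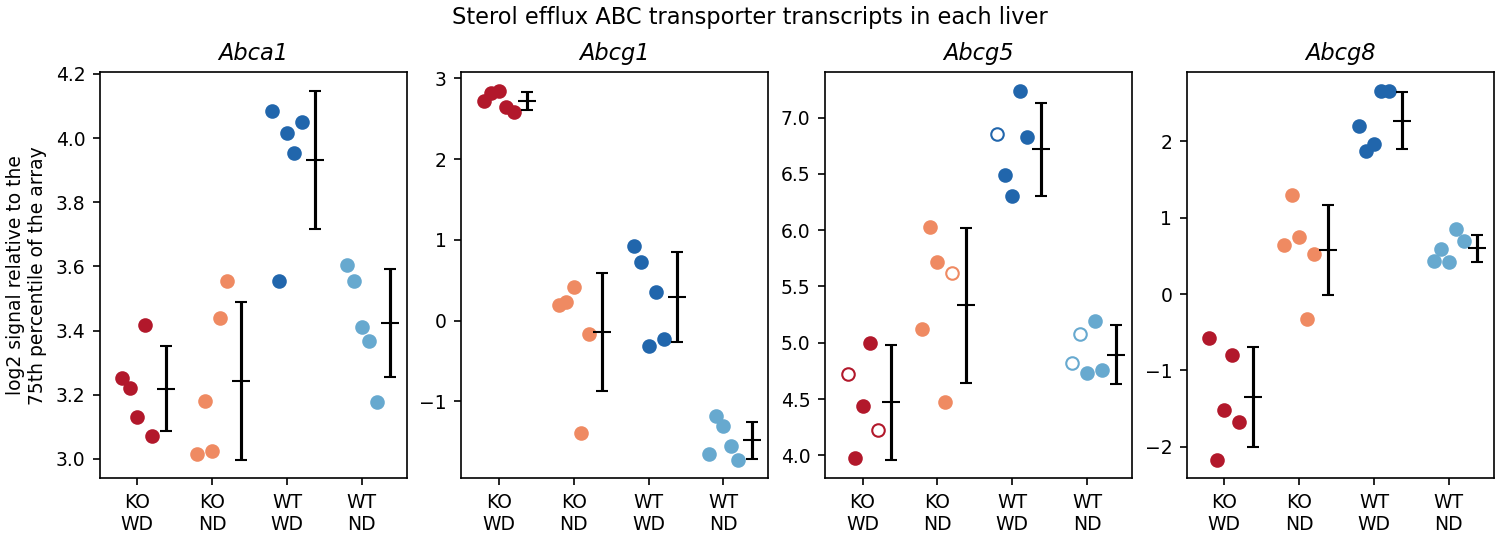
Log2 signal of each transporter relative to the 75th percentile of the array (vertical axis, scale differs by panel) in every mouse of the 4 groups: LXR knockout (KO) or wild-type (WT), Western (WD) or normal diet (ND). Points are mice 1 to 5 from left to right, hollow points are outlier spots left out of the mean, and bars are the mean ± SD. Abcg1 was highest in KO WD livers (mean 6.62 as a multiple of the percentile) and Abca1, Abcg5 and Abcg8 in WT WD livers (15.4, 108.6 and 4.96).

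The genotype difference on Western diet asked how the transporters depend on the LXRs under a cholesterol-rich diet. Abcg8 was 12.3-fold lower, Abcg5 4.75-fold lower and Abca1 1.64-fold lower in knockout than in wild-type livers, and Abcg1 was 5.38-fold higher. Abcg8 differed by -3.62 ± 0.29 (SE, n = 5 each), with an adjusted p of 1.14e-08 from limma after Benjamini-Hochberg adjustment over all 26121 probes tested. With normexp background correction it differed by -2.76 (limma adjusted p = 1.13e-07). The dimmer Abcg8 probe differed by -3.82, and by -2.15 with normexp. Its lowest KO WD level, 0.0690, lay within the KO WD ranges of the deleted Nr1h3 and Nr1h2, so the size of its difference is uncertain. Abcg5 differed by -2.25 ± 0.36 (n = 3 and 4, limma adjusted p = 0.000151). Abca1 differed by -0.71 ± 0.13 (n = 5 each, limma adjusted p = 0.000137), and its adjusted p was 0.227 after normexp background correction (-0.49). Abcg1 differed by 2.43 ± 0.29 (n = 5 each, limma adjusted p = 1.05e-06). So 3 genes fell and 1 rose. Of all probes tested, 35.8% were lower and 23% were higher at the same threshold of 0.05, with a median difference of -0.21, so that being called was common on this diet. Compared slide by slide, over 4 slides, Abcg8 differed by -4.33 to -2.75 and Abca1 by -0.88 to -0.42. Abcg1 differed there by 1.80 to 2.96, and Abcg5 by -2.06 and -1.31 on the 2 slides with both values.

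On normal diet the genotype difference asked whether the LXRs set the transporter levels without that load. Only Abcg1 passed the test, 2.53-fold higher in knockout livers (1.34 ± 0.29, n = 5 each, limma adjusted p = 0.00298), and it was at 0.83 with normexp (adjusted p = 0.0155). On slide 4, which held the low KO ND mouse 4, Abcg1 differed by -0.09, and on the other 3 slides with both groups it was positive. Abca1 differed by -0.18 (95% interval -0.46 to 0.09, limma adjusted p = 0.365). Abcg5 differed by 0.44 (-0.34 to 1.22, limma adjusted p = 0.434, n = 4 and 3). Abcg8 differed by -0.02 (-0.64 to 0.59, limma adjusted p = 0.97). These intervals still allow Abcg5 to be higher by 1.22 and Abcg8 to lie 0.59 higher or 0.64 lower on the log2 scale, so similar levels in both genotypes are not shown. Among all 26125 probes tested here, 10.1% were higher and 8.41% lower, against 1 of 4 transporters higher and 0 lower.

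In wild-type mice the diet difference asked how the transporters respond to Western diet when both LXRs are present. All 4 rose. Abcg5 was 3.54-fold higher on Western than on normal diet (1.82 ± 0.36, n = 4 and 3, limma adjusted p = 0.0109), Abcg1 3.43-fold higher (1.78 ± 0.29, n = 5 each, limma adjusted p = 0.000971) and Abcg8 3.19-fold higher (1.67 ± 0.29, n = 5 each, limma adjusted p = 0.00194). Abca1 was 1.42-fold higher (0.51 ± 0.13, n = 5 each, limma adjusted p = 0.028), and its groups overlapped. Few transcripts moved in this comparison: 2.68% of the 26120 probes tested were higher and 2.43% were lower, with a median difference of -0.03. Ranked by absolute difference, Abcg5, Abcg1 and Abcg8 stood at 257, 274 and 333 of those probes. Within the slides that held both groups Abcg8 rose by 1.27 to 1.97, Abcg1 by 0.98 to 1.91, Abcg5 by 1.58 to 2.07 and Abca1 by 0.00 to 0.87. The Abca1 value of 0.00 was that of slide 3, which held WT WD mouse 2. The Abcg1 value was 1.04 with normexp (adjusted p = 0.00502). The adjusted p of Abcg5 was 0.141 with the slide as a block and 0.178 with normexp, and Abca1 lost its call in 12 of 34 alternatives, its adjusted p reaching 0.0805 at most when 1 mouse was left out.

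In knockout mice the same diet gave a different picture. Abcg1 rose 7.29-fold (2.87 ± 0.29, n = 5 each, limma adjusted p = 2.41e-07) and Abcg8 fell 3.79-fold (-1.92 ± 0.29, n = 5 each, limma adjusted p = 2.79e-05). Abcg5 differed by -0.86 ± 0.36 (n = 3 and 4, limma adjusted p = 0.0623), and by -0.92 with an adjusted p of 0.00565 when the outlier spots were kept (n = 5 each), against -0.45 with normexp (adjusted p = 0.461). Abca1 differed by -0.02 ± 0.13 (95% interval -0.30 to 0.25, limma adjusted p = 0.892), and its sign turned positive under 5 other settings of scaling, background or weights and without KO WD mouse 5, KO ND mouse 4 or KO ND mouse 5. Of the 26125 probes tested, 20.6% were higher and 30.2% lower. Compared slide by slide, over 5 slides, Abcg1 was higher (2.44 to 4.03) and Abcg8 lower (-3.46 to -0.47) every time. Abcg5 differed by -2.06, -1.27 and 0.52 on the 3 slides with both values, and Abca1 by -0.48 to 0.24 over 5 slides, so neither kept 1 sign.

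The difference between both diet differences, knockout minus wild-type, tested whether the response to diet depended on the LXRs. It was -3.60 ± 0.42 for Abcg8 (limma adjusted p = 8.38e-06) and -2.69 ± 0.51 for Abcg5 (limma adjusted p = 0.00205). It was -0.53 ± 0.19 for Abca1 (limma adjusted p = 0.0395) and 1.09 ± 0.41 for Abcg1 (limma adjusted p = 0.0544). So 3 of 4 transporters had a lower diet difference in knockout than in wild-type mice and 0 a higher one, among 15.5% of all 26116 probes tested that were lower and 11.5% that were higher. The Abca1 value lost its call in 19 of 33 alternatives, among them leaving out any of 13 of the 20 mice (adjusted p up to 0.0757). The Abcg5 value lost it in 2 of 33, among them normexp (-2.14, adjusted p = 0.074). With normexp the Abcg8 value was -2.77 (limma adjusted p = 7.72e-05). The Abcg1 value gained a call in 13 of 33, for instance at 1.14 with an adjusted p of 0.0188 with the slide as a block. The genotype and diet comparisons share groups, so their values are set side by side and are not independent of one another.

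**Figure D2:**
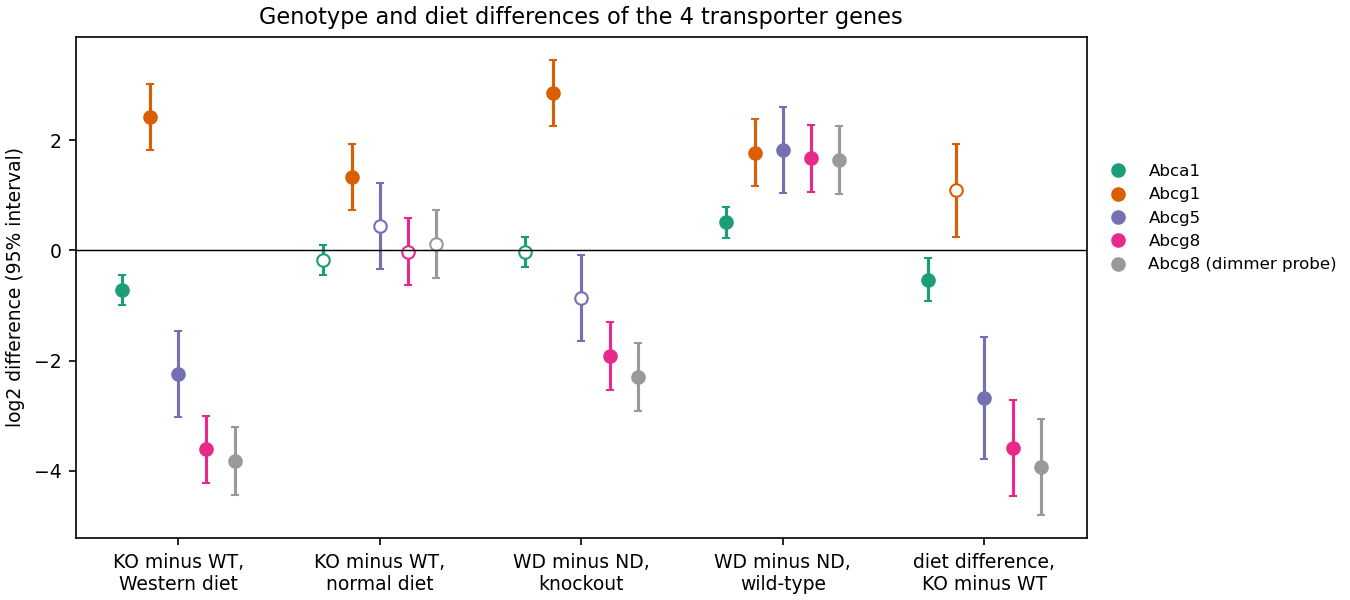
Log2 differences (vertical axis) with their 95% intervals for the 5 probes in the 5 comparisons (horizontal axis). Filled points had a limma adjusted p under 0.05 and hollow points did not. Abcg1 lay above 0 in every comparison, and on Western diet Abcg8 had the lowest knockout minus wild-type values, -3.62 and -3.82.

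ABCG5 and ABCG8 work only as a pair, so the covariation of their transcripts between mice was examined. After the group means were removed, mice with high Abcg5 had high Abcg8 (Pearson r = 0.936, permutation p = 0.00023, adjusted over 6 pairs of transporters p = 0.00138, n = 14 mice, two-sided permutation within groups). Spearman's rho was 0.934 (permutation p = 0.0004, adjusted p = 0.0024), and r was 0.882 without the 2 mice farthest from the median. Both deviations had the same sign in 12 of 14 mice. In KO ND mouse 2 they were 0.70 and 0.70 for Abcg5 and Abcg8, in KO ND mouse 4 -0.86 and -0.92, and in KO WD mouse 4 0.52 and 0.70. With the outlier spots kept (n = 20) r was 0.873, and over that setting, normexp and the omission of single mice it ran from 0.873 to 0.953. With the slide removed together with the group, a setting added after seeing the data and given with no test, r was 0.991 over the 14 arrays (5 residual degrees of freedom) and 0.943 over 20 with the outlier spots kept (11 residual degrees of freedom). In the same setting Abcg1 with Abcg5 was at 0.889 over 14 arrays and 0.566 over 20, so the values over 14 arrays, with few degrees of freedom, are loose. In none of the other 5 pairs did r pass, from -0.398 for Abca1 with Abcg1 to 0.539 for Abcg1 with Abcg5, with adjusted permutation p of 0.387 or more.

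The ratio of the pump subunits within an array does not depend on the scaling between arrays. The log2 ratio of the Abcg8 to the Abcg5 probe was -5.96 ± 0.18 (SD, n = 3) in KO WD, -4.74 ± 0.20 (n = 4) in KO ND, -4.43 ± 0.21 (n = 4) in WT WD and -4.24 ± 0.15 (n = 3) in WT ND livers. It thus differed by -1.53 between KO WD and WT WD livers, by -1.22 between KO WD and KO ND livers, and by -0.50 between KO ND and WT ND livers, each without overlap. With 3 and 4 mice the smallest p that the exact permutation test allows is 0.0571, which all 3 comparisons had (adjusted p = 0.0762 over 24 ratio tests). With the outlier spots kept and 5 mice per group the first 2 differences were -1.34 and -1.002, with an adjusted exact permutation p of 0.0119 in both, and -0.49 between KO ND and WT ND livers, with an adjusted exact permutation p of 0.0224. With normexp the 3 differences were, in the same order, -0.997, -1.061 and -0.312. Their adjusted exact permutation p was then 0.0914, 0.0914 and 0.327. Between wild-type groups the ratio differed by -0.19 (exact permutation p = 0.286, adjusted p = 0.343), so unequal change of these 2 transcripts was not detectable there. The ratio of Abcg8 to Abcg1 differed by -6.04 log2 units between KO WD and WT WD livers (exact permutation p = 0.00794, the smallest 5 against 5 can give, adjusted p = 0.0212).

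**Figure D3:**
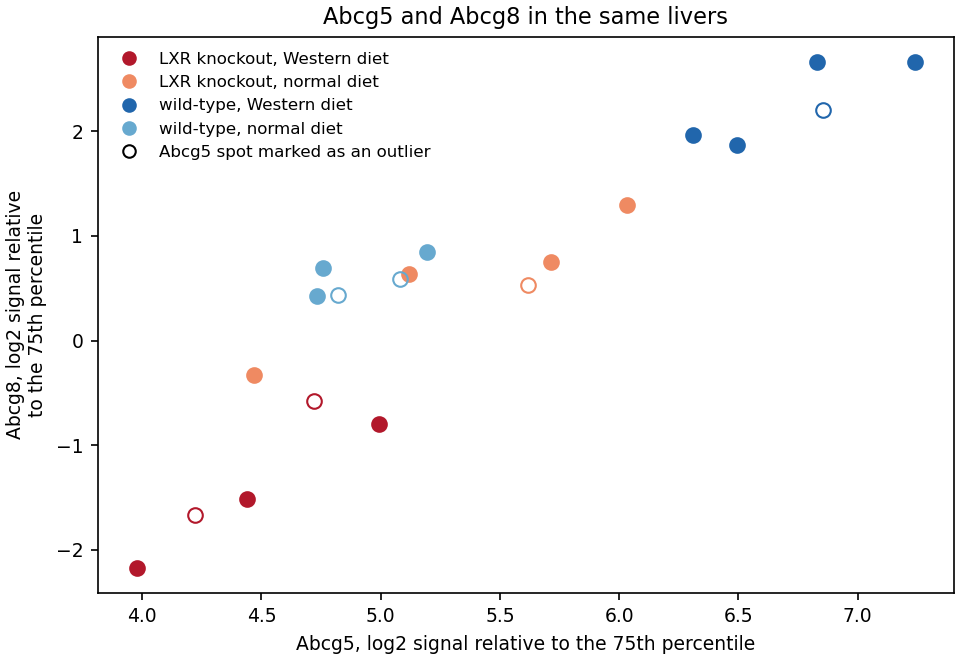
Abcg8 (brighter probe, vertical axis) against Abcg5 (horizontal axis), both as log2 signal relative to the 75th percentile of the array, 1 point per liver, with hollow points where the Abcg5 spot was marked as an outlier. Within each group livers with more Abcg5 tended to have more Abcg8 (r of deviations 0.936 over 14 filled points), and the filled KO WD points had the lowest ratio, -5.96 on average.

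Among the other nuclear factors named as regulators of ABCG5 and ABCG8, a list of 9, 1 rose and 6 fell in knockout livers on Western diet (median -0.44, against -0.21 over all probes). Of all probes tested, 23% were higher and 35.8% lower there, and 10.1% and 8.41% on normal diet. With Western diet 2.68% were higher and 2.43% lower in wild-type mice, and 20.6% and 30.2% in knockout mice. For the difference of the diet differences 11.5% were higher and 15.5% lower. Counts in this and the following lists stand beside these shares. Gata4, a GATA factor of hepatocytes, fell by 1.47 (limma adjusted p = 5.13e-05) and Gata6 rose by 1.26 (limma adjusted p = 1.55e-05). Nr0b2 (SHP), a repressor induced by bile acid, fell by 1.04 (limma adjusted p = 0.00954), and Hnf4a, a master regulator of hepatocyte genes, fell by 0.95 (limma adjusted p = 0.000103). On normal diet 2 rose and 1 fell (median 0.08), and with Western diet 1 rose and 2 fell in wild-type mice (median -0.04) and 1 rose and 6 fell in knockout mice (median -0.68). Nr1h4 (FXR), the bile acid receptor, fell by 1.46 in knockout mice on Western against normal diet (limma adjusted p = 6.39e-06). In the difference of the diet differences 1 was higher and 3 lower (median -0.48).

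Of 7 LXR and RXR receptors and corepressors, which include both deleted genes, 6 fell in knockout livers on Western diet and 2 fell on normal diet (medians -0.43 and -0.28). The deleted genes Nr1h3 and Nr1h2 are among the 6 and are both of the 2. Rxrg, an RXR isoform, fell by 0.69 in knockout livers on Western diet (limma adjusted p = 0.00632). With Western diet none of the 7 was called in wild-type mice by limma (0 also at an unadjusted p under 0.05), and in knockout mice 3 fell (medians -0.16 and -0.32). None was called by limma for the difference of the diet differences (0 also at an unadjusted p under 0.05, median -0.14).

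The classical LXR targets other than these transporters, 11 genes, included 6 that fell and 3 that rose in knockout livers on Western diet (median -0.56), beside 35.8% and 23% of all probes. Cd5l, a secreted macrophage protein, fell by 8.56 (limma adjusted p = 6.23e-12), the stearoyl-CoA desaturase gene Scd1 by 6.31 (limma adjusted p = 1.78e-09) and the lipogenic factor gene Srebf1 fell by 3.34 (limma adjusted p = 1.8e-09). Arl4c, a small GTPase known as an LXR target of macrophages, rose by 2.88 (limma adjusted p = 1.33e-07). On normal diet 1 rose and 3 fell (median -0.36). With Western diet 2 rose and 0 fell in wild-type mice (median 0.35): Lpl, lipoprotein lipase, by 4.61 (limma adjusted p = 2.72e-07) and Srebf1 by 1.44 (limma adjusted p = 0.000987). In knockout mice 4 rose and 4 fell (median -0.66), and the difference of the diet differences was higher for 3 and lower for 5 (median -0.65).

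HDL formation and remodelling, the step that ABCA1 feeds, was covered by 10 genes. On Western diet 1 rose and 7 fell in knockout livers (median -0.46), beside 23% and 35.8% of all probes. Lipc, hepatic lipase, fell by 2.72 (limma adjusted p = 1.92e-08), and Lcat, which esterifies HDL cholesterol, by 1.09 (limma adjusted p = 1.3e-06). Apoa4 rose by 2.08 (limma adjusted p = 2.76e-05). On normal diet 1 rose and 2 fell (median -0.21), and with Western diet 0 rose and 2 fell in wild-type mice (median -0.40), among them Apoa1, the acceptor of ABCA1 lipid, which fell by 0.48 (limma adjusted p = 0.0457). In knockout mice 0 rose and 6 fell with Western diet (median -0.59), beside 20.6% and 30.2% of all probes. In the difference of the diet differences 1 was higher and 3 were lower (median -0.21).

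Among 7 canalicular transporters and flippase genes, the neighbours of the ABCG5 and ABCG8 pump in the membrane, 2 rose and 4 fell in knockout livers on Western diet (median -0.58), beside 23% and 35.8% of all probes. Abcb1a, which encodes a P-glycoprotein that exports drugs, rose by 2.42 (limma adjusted p = 1.02e-05). Abcg2, which exports xenobiotics, fell by 1.92 (limma adjusted p = 1.09e-07) and Abcb11, the bile salt export pump, by 1.59 (limma adjusted p = 2.98e-08). Abcb11 also fell by 0.80 on normal diet (limma adjusted p = 0.000371), where 2 rose and 2 fell (median -0.17). Western diet raised 1 and lowered 0 in wild-type mice (median 0.27) and raised 1 and lowered 3 in knockout mice (median -0.37). The gene raised in both was Abcb1a, by 3.73 in knockout mice (limma adjusted p = 1.04e-07), and it was well above background on no WT ND array. In the difference of the diet differences 0 were higher and 3 lower (median -0.62).

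Of 14 other ABCA and ABCG family genes, 10 passed the filter on dim probes, while Abca4, Abca12, Abca13 and Abcg4 did not. On Western diet 3 rose and 5 fell in knockout livers (median -0.47), beside 23% and 35.8% of all probes. Abca8a fell by 2.29 (limma adjusted p = 3.81e-07), Abca2 by 1.41 (limma adjusted p = 7.21e-08), and Abcg3 rose by 2.04 (limma adjusted p = 6.09e-07). On normal diet 2 rose and 1 fell (median -0.12), in wild-type mice Western diet raised 1 and lowered 0 (median 0.26), in knockout mice it raised 2 and lowered 5 (median -0.13), and in the difference 1 was higher and 4 lower (median -0.43).

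Intracellular sterol handling supplies or stores the sterol that the transporters export. Of its 10 genes 6 rose and 3 fell in knockout livers on Western diet (median 0.37), beside 23% and 35.8% of all probes. One of the 6, Npc1l1, was well above background on KO WD arrays only. Soat1, which esterifies cholesterol for storage and is the isoform of macrophages, rose by 4.29 (limma adjusted p = 1.49e-09), and Nceh1, which hydrolyses cholesteryl ester in macrophages, by 1.89 (limma adjusted p = 2.96e-06). Npc2, which hands cholesterol out of the lysosome, rose by 1.46 (limma adjusted p = 2.38e-07). On normal diet 1 rose and 0 fell (median -0.26), with Western diet 1 rose and 1 fell in wild-type mice (median -0.10) and 5 rose and 2 fell in knockout mice (median 0.41), where Scp2, a sterol carrier, fell by 1.22 (limma adjusted p = 1.93e-06). In the difference of the diet differences 5 were higher and 2 lower (median 0.56).

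Of 7 oxysterol and bile acid enzymes, 2 rose and 3 fell in knockout livers on Western diet (median -1.48), beside 23% and 35.8% of all probes, so the count itself is near the background. Cyp7b1, which hydroxylates oxysterols, fell by 4.59 (limma adjusted p = 2.95e-11) and Cyp27a1, which makes the LXR ligand 27-hydroxycholesterol, by 1.75 (limma adjusted p = 1.15e-07). On normal diet 1 rose and 1 fell (median -0.48). With Western diet 0 rose and 4 fell in wild-type mice (median -0.81), Cyp7b1 by 0.81 (limma adjusted p = 0.0457). In knockout mice 2 rose and 4 fell (median -1.79), of which Cyp7b1 fell by 4.92 (limma adjusted p = 3.29e-11), and 2 were higher and 2 lower in the difference (median -0.02).

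Cell type markers were read beside the transporters. Of all probes, 23% were higher and 35.8% lower in knockout livers on Western diet, and 20.6% and 30.2% with Western diet in knockout mice. Of 16 macrophage markers, 13 rose and 2 fell in knockout livers on Western diet (median 2.49) and 13 rose and 1 fell with Western diet in knockout mice (median 2.32), beside the rise of Abcg1. Their summed level was 367 to 446 in KO WD, 26.8 to 138 in KO ND, 39.5 to 142 in WT WD and 33.1 to 70.6 in WT ND livers. On normal diet 6 rose and 1 fell (median 0.90), 0 were called with Western diet in wild-type mice by limma (2 at an unadjusted p under 0.05, median 0.81), and 9 were higher and 1 lower in the difference of the diet differences (median 1.64). In WT WD mice 1 to 5, where Abcg1 was 1.90, 1.66, 0.804, 1.28 and 0.857, the sums were 142, 95.8, 45.4, 78.1 and 39.5, in the same rank order save for the lowest 2 livers. In KO ND mice 1 to 5, where Abcg1 was 1.14, 1.18, 1.33, 0.382 and 0.893, they were 138, 26.8, 48.9, 27.2 and 102, and did not follow its order. The sums were 423, 400, 446, 367 and 422 in KO WD mice 1 to 5 and 41.4, 70.6, 33.1, 33.4 and 42.7 in WT ND mice. Neither of these groups followed the order of Abcg1. A marker spot left out as an outlier added nothing to these sums. Clec4f, a marker of resident Kupffer cells, fell by genotype on Western diet (-8.10) and by diet in knockout mice (-3.73), and also by genotype on normal diet (-3.88). In the first 2 of these comparisons Vsig4 was at -3.56 and -0.38, the second not called. Marco was at -0.48 and 0.235, neither called. Gpnmb and Itgam, which mark lipid-laden and recruited macrophages, were well above background on all 5 KO WD arrays and on at most 1 array of either wild-type group. The part of the macrophages in the Abcg1 result was not tested.

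**Figure D4:**
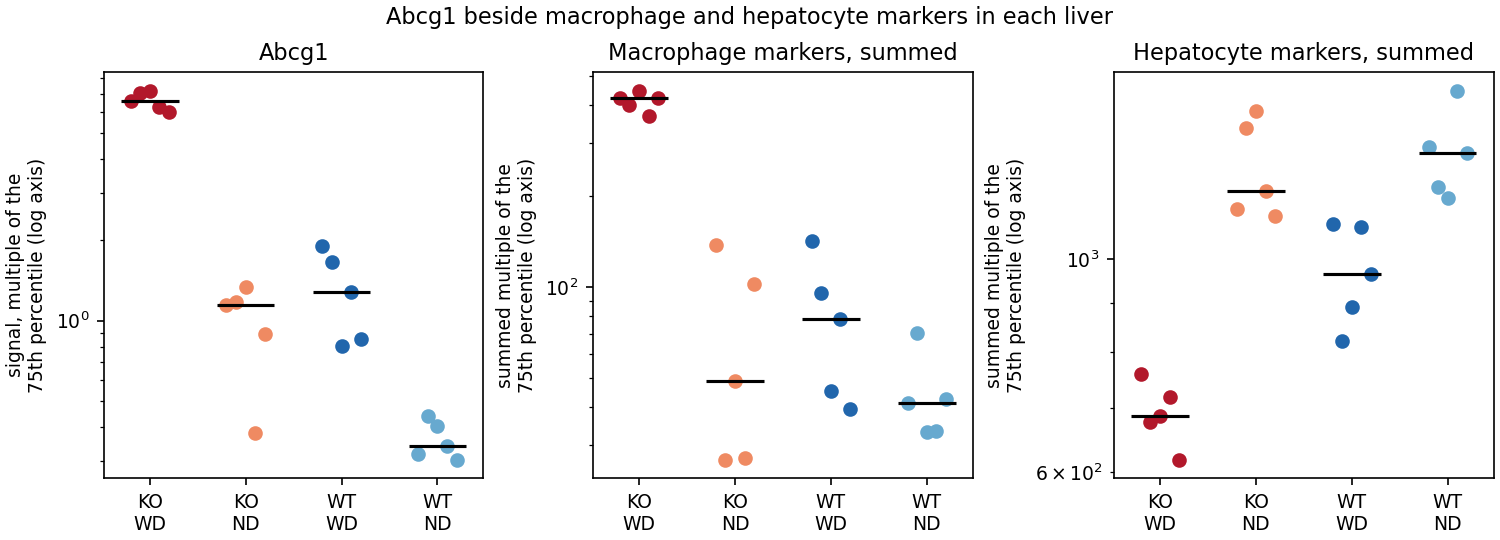
Level of Abcg1 and the summed levels of 16 macrophage and 9 hepatocyte markers in each liver, as multiples of the 75th percentile of the array on log axes, with points for mice 1 to 5 from left to right and lines at the group medians. Abcg1 and the macrophage sum were highest in KO WD livers (macrophage sums of 367 to 446), where the hepatocyte sum was lowest (618 to 759). A marker spot left out as an outlier added nothing to its sum.

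Over all probes 35.8% were lower by genotype on Western diet and 30.2% by diet in knockout mice. Of the 9 hepatocyte markers measured, 7 fell and 0 rose in knockout livers on Western diet (median -0.62) and 8 fell and 0 rose with Western diet in knockout mice (median -0.89), beside the fall of Abcg8. Their summed level was 618 to 759 in KO WD, 1110 to 1430 in KO ND, 822 to 1090 in WT WD and 1160 to 1500 in WT ND livers. None was called by limma for genotype on normal diet (2 at an unadjusted p under 0.05, median -0.10) or for diet in wild-type mice (3 at an unadjusted p under 0.05, median -0.29), and 4 were lower in the difference of the diet differences (median -0.50). The Abcg8 difference of -3.62 was larger than that of any of the 9 markers, of which Cyp2e1 fell most, by 2.12 (limma adjusted p = 2.61e-05), and the Abcg5 difference of -2.25 was close to it. The part of the hepatocyte share in these results was not tested.

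Markers of other cell types also differed, where 23% of all probes were higher and 35.8% lower by genotype on Western diet. In knockout livers on Western diet 6 of 7 cholangiocyte markers rose (median 2.54) and 6 of 8 stellate cell and fibroblast markers rose (median 1.89), with none falling in either list. One of the 6 cholangiocyte markers, Cftr, was well above background on KO WD arrays only. The cholangiocyte sum was 148 to 208 in KO WD livers, against 147 in WT WD mouse 2, the liver with the low Abca1, and 34.2 to 39.9 in the other 4 WT WD livers. Stellate sums are not compared between groups, since a marker spot left out as an outlier added nothing to the sum of its liver. The SE of Dcn ran from 0.287 to 0.482 between comparisons of 2 groups, since its spot was left out on unequal numbers of arrays. Dcn itself differed by 0.31 in knockout livers on Western diet (limma adjusted p = 0.578). Of 9 endothelial markers 2 rose and 1 fell (median -0.30), and of 7 T and B cell markers 1 rose and 2 fell (median -0.74).

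The genes most like each transporter were those with the smallest root mean square distance between mean-centred log2 levels, over 11300 genes above background on all arrays (11357 for Abcg5, over its 14 arrays). Abcg1 lay closest to Aldh3b1 (0.36), Aldh3b2 (0.45), Specc1 (0.47), Ehd4 (0.48) and Slc15a3 (0.49), against a median distance of 1.68. Aldh3b1 and Aldh3b2 are close paralogs, and their probes may share signal. Abcg8 lay closest to Rpp40 (0.54), Srebf1 (0.59), Plekhb1 (0.59), Col5a3 (0.63) and Aspg (0.64), against a median of 1.33. Each of these shared the directions of Abcg8 for genotype on Western diet, diet in wild-type mice and diet in knockout mice, though not every difference was called. They were picked for closeness over the same arrays, so shared directions largely follow from the choice and are no separate result. Srebf1, itself an LXR target, was at -3.34, 1.44 and -1.23 in these comparisons, and Plekhb1 at -2.802, 0.615 and -1.231. Abcg5 lay closest to Cryl1 (0.42), Unc93a (0.49), Serpina11 (0.51), Rnf145 (0.55) and Hsd17b11 (0.55), against a median of 0.99, and at 0.65 from Abcg8. Abca1, which varied least, lay closest to Ubox5 (0.17), Mtf1 (0.18), Pak1ip1 (0.18), Wrn (0.18) and Fcsk (0.18), against a median of 0.48. Both Abcg8 probes lay 0.23 apart, and Abcg1 and Abcg8 were the most distant transporters at 2.56.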

How the data were processed

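Liver RNA from 20 mice was labelled with Cy3 and hybridised to single-colour Agilent arrays. Per the submitters' processing notes, the scans were extracted with Agilent Feature Extraction 9.5, and per the file headers the deposited values are an intensity that the software had background-subtracted and detrended. The deposited series matrix, used as an alternative, is on a log2 scale by its values, normalised by the authors in a way not given in the sources used here, with 24493 probes tested from it.

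Spots of a probe were averaged after control spots and outlier spots (105 to 270 per array) were left out. Each log2 value was scaled by subtracting the 75th percentile over its array. A probe was tested (26130 of 41174) where 4 or 5 arrays in any group read it well above background. Differences were tested with limma 3.58.1 (lmFit, eBayes, two-sided) in R 4.3.3, in 1 fit of 4 group means, and adjusted by Benjamini-Hochberg within each of 5 comparisons at 0.05. Of the probes, 23483 were named through an accession, 6678 through a symbol and 2887 through a synonym, while 8126 stayed under the name deposited with them. For other genes the probe with the highest mean stood for the gene. Ratio tests were exact permutations, and covariation used 100000 permutations within groups. The scripts were tested on simulated data.

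The transporters, the 8 pathway lists (74 genes) and 6 marker lists (57 genes) were chosen with earlier results of these data known. Named list genes were up to 4 with the largest differences of each comparison, and 5 nearest genes were named per transporter. Same-numbered mice of different groups deviated together in 11 of 30 pairs only (correlations -0.344 to 0.432), so the numbers were not taken to pair mice. Most of these 11 pairs were arrays of 1 slide, such as WT WD and WT ND mice 4 (0.432) and KO WD and KO ND mice 4 (0.409). KO WD and KO ND mice 2, also on 1 slide, were at -0.036. Arrays of a slide thus tended to deviate together, and the main fit held no term for the slide. The mice were separate animals, and the number of arrays limits the precision. Alternatives covered scaling, background correction, outlier spots, filters, moderation, weights, the slide, which groups entered the model, and the omission of single mice. Motifs were searched in RefSeq promoter windows; probe sequences and an Abcg1 promoter window were not used here. The result of 1 list gene is not reported here. Figures were drawn with matplotlib 3.10.9 in Python 3.11.15.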

Additional observations from a re-analysis of the deposited data

Results flagged for a closer look

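Abca1 in wild-type mice on Western diet had a single mouse far from the others. Mouse 2 was lowest at 11.8, against 15.5 to 16.96 in the other 4, and its gap to the nearest was 0.752 of the range of the group. It was the only such gap among 18 groups looked at, where chance gives about 1 in 20. The same liver had the highest summed cholangiocyte markers of its group, 147 against 34.2 to 39.9 in the other 4, and the part of this in its Abca1 level was not tested. Without this mouse the Abca1 diet difference in wild-type mice was 0.60 (limma adjusted p = 0.011).

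The response to Western diet differed between knockout and wild-type mice, by the test of the difference itself, for Abcg8 (-3.595, and -3.937 for its dimmer probe), Abcg5 (-2.686) and Abca1 (-0.533). Abcg8 rose in wild-type and fell in knockout mice. The Abca1 value lost its call in 19 of 33 alternatives and the Abcg5 value in 2 of 33.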

How the results depend on the processing

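Of 676 values of the transporters under other settings, 605 kept their direction and their side of the threshold, 37 lost the call, 20 gained it and 14 turned sign. In the alternatives run, no call was lost for Abcg1 by genotype on either diet or by diet in either genotype, for Abcg8 apart from genotype on normal diet, where it was not called, or for Abcg5 by genotype on Western diet. The causes of the changes below were not tested.

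The Abcg1 difference of the diet differences passed the threshold at 1.267 with quantile scaling, 1.428 with normexp, 1.317 in the series matrix, 1.089 with probes above background on all arrays or with trend and robust moderation, 1.137 with the slide as a block and 1.106 as a random block. The Abcg5 diet difference in knockout mice passed at -0.578 in the matrix, -0.921 with outlier spots kept, -0.868 with the slide as a random block, -0.864 with trend and robust moderation and -1.199 with array weights. In wild-type mice it did not pass at 1.692 with normexp or 1.857 with the slide as a block, and its difference of the diet differences at -2.143 with normexp. Abca1 did not pass for diet in wild-type mice at 0.614 (median scaling), 0.483 (normexp) and 0.509 (no filter, or only the groups compared), for the difference of the diet differences at -0.586 (median), -0.415 (quantile), -0.249 (normexp), -0.449 (matrix) and -0.533 (no filter), and for genotype on Western diet at -0.489 (normexp). With the replicate number as a block, Abcg1 passed at 1.089 for the difference of the diet differences, while Abca1 at 0.509 (diet, wild-type) and -0.533 (difference) and Abcg5 at 1.832 and -2.767 did not, and no other call of the brightest probes changed; the number does not mark a pairing.

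Signs turned for Abca1 by diet in knockout mice at 0.028 (median), 0.152 (quantile), 0.234 (normexp), 0.111 (matrix) and 0.027 (array weights), for Abcg8 by genotype on normal diet at 0.003 (quantile), 0.015 (normexp) and 0.16 (array weights), and within slides for Abcg1 by genotype on normal diet (-0.089) and the Abca1 difference (0.106). Values that were not called also turned sign within slides, for Abcg5 by diet in knockout mice (0.524) and by genotype on normal diet (-0.262), for Abcg8 (0.86 and 0.16) and Abca1 (0.029 and 0.186) by genotype on normal diet, and for Abca1 by diet in knockout mice (0.04 to 0.239 on 3 of 5 slides). With the slide removed, r of Abca1 with Abcg5 was 0.221 with outlier spots kept. The Abcg8 to Abcg1 ratio by diet in wild-type mice was 0.369 with normexp, and r was 0.03 for Abca1 with Abcg1 (normexp) and 0.089 (outlier spots kept) and 0.558 (normexp) for Abca1 with Abcg5.

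Leaving out 1 mouse gave 0.778 to 1.247 for the Abcg1 difference, -1.152 to -0.618 for Abcg5 by diet in knockout mice, -0.2 to 0.205 for Abcg8 and -0.032 to 0.251 for its dimmer probe by genotype on normal diet. For Abca1 it gave -0.081 to 0.054 (diet, knockout), 0.448 to 0.603 (diet, wild-type) and -0.627 to -0.455 (difference). Ratios ran from -0.035 to 0.434 (Abcg8 to Abca1, genotype, normal diet), -0.035 to 0.433 (Abcg5 to Abcg1, diet, wild-type) and -0.332 to 0.106 (Abcg8 to Abcg1, diet, wild-type), and r from -0.212 to 0.429 (Abca1, Abcg5), -0.143 to 0.189 (Abca1, Abcg8) and -0.115 to 0.411 (Abcg1, Abcg8).

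Probes called by genotype on Western diet were 2327 higher and 3894 lower with normexp, 3878 higher with probes above background on all arrays and 5741 lower with 1 probe per gene, against 6003 and 9351. On normal diet they were 340 and 243 (normexp), 1681 higher (all arrays) and 3994 lower (array weights), against 2642 and 2196, with 1410 to 3005 lower without 1 mouse. By diet in knockout mice they were 2105 and 2969 (normexp) and 4872 lower (1 probe per gene), against 5385 and 7901. In wild-type mice they were 70 and 108 (normexp), 253 lower (median scaling) and 988 lower (array weights), against 699 and 635, with 438 to 759 higher and 408 to 711 lower without 1 mouse. For the difference they were 675 and 506 (normexp), 1971 higher (all arrays) and 2579 lower (1 probe per gene), against 3011 and 4051. The share of calls that were higher was 52.4% by diet in wild-type mice (65.2% with median scaling, 39.3% with normexp) and 42.6% for the difference (57.2% with normexp). Median scaling moved the median of all probes to -0.315 by genotype on Western diet and 0.072 by diet in wild-type mice, and normexp to -0.306 by diet in knockout mice and -0.281 for the difference.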
